A study of Homo sapiens with 12 samples.

Results

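The genes described here are 9 that handle or burn fatty acids and are known targets or members of the PPAR family: the receptors PPARA and PPARG, the secreted protein ANGPTL4, the kinase PDK4, the fatty acid carriers CD36 and FABP1, the droplet protein PLIN2, and the oxidation enzymes CPT1A and ACADVL. They were taken by gene name from the deposited tables, which together list 60612 genes, and the list was drawn up with the co-culture changes of these libraries in view. Their own changes are therefore given as a description, without p-values. RNA was sequenced from 2 established human lines kept in a tumor-on-a-chip, a microfluidic culture device. HCCLM3 is a hepatoma line and LX2 is a hepatic stellate line, both labelled wild type. The 4 groups were HCCLM3 alone, HCCLM3 with LX2, LX2 alone and LX2 with HCCLM3, with 3 libraries in each. All 4 groups were grown on the chip, so none shows the lines outside it, and each line stands for its cell type through 1 cell line only. The sources used here do not state how the lines were separated for RNA extraction, nor whether the 3 libraries of a group came from separate cultures, so the spread between them may be technical.

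PPARs are nuclear receptors that bind fatty acids and their derivatives and act on DNA as pairs with RXR. In liver, PPARA is known for switching on fatty acid oxidation and ketone body synthesis during fasting. PPARG is known for driving fat storage in adipocytes, and in hepatic stellate cells its level is known to be high in the resting state and to fall on activation. ANGPTL4 and PDK4 are textbook PPAR targets, and both also answer to other regulators, among them glucocorticoids, FOXO factors and, for ANGPTL4, low oxygen.

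The libraries held 61836616 to 77712308 gene counts each. At that depth 3 counts, the limit that a count of 0 allows, come to at most 0.0485 CPM (counts relative to the library total), which covers counting error only. Of 10 hepatocyte markers only 1 reached 1 FPKM (fragments per kilobase of transcript, scaled to library size) in HCCLM3 alone, whereas 4 of 5 epithelial markers did. LX2 alone had VIM at 175.5 FPKM and COL1A1 at 2.72 FPKM, but the stellate and fibroblast markers COL1A2, SPARC and LRAT were at 0 counts there. The summed hepatocyte level was 3.22 to 3.30 FPKM in HCCLM3 alone and 37.2 to 37.9 FPKM with LX2, where FGB made up 33.4 FPKM, and the summed epithelial level was 990.3 to 1131 FPKM alone and 629.9 to 731.6 FPKM with LX2. Of 8 adipocyte markers, 2 reached 1 FPKM in HCCLM3 alone (CIDEC at 12.1 and PLIN4 at 1.83 FPKM) and none did in LX2. Their sum was 13.9 to 14.0 FPKM in HCCLM3 alone, 9.58 to 10.8 FPKM with LX2, and at most 0.566 FPKM in every LX2 library. ADIPOQ and CIDEA were at 0 counts in all 12 libraries and LEP had 4 counts in total. In HCCLM3, all 8 erythroid markers tested were higher with LX2: their summed level rose from at most 0.0471 FPKM alone to between 81.2 and 113 FPKM, with HBB at 29.9 FPKM. Of 8 monocyte and granulocyte markers tested, 7 were higher, from a sum of 0.787 to 1.20 FPKM alone to 12.3 to 17.3 FPKM with LX2, while the general leukocyte gene PTPRC averaged 0.0471 FPKM there. In LX2 with HCCLM3 the erythroid sum was 0.0502 to 1.32 FPKM and the monocyte and granulocyte sum 0.28 to 0.61 FPKM. The part of these marker RNAs in the results below was not tested. Levels refer to RNA per library, so fewer cells with a transcript and less transcript per cell cannot be told apart.

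Between PPARA and PPARG, the receptors described here, PPARG had the higher level in HCCLM3. It lies at chr3:12287368-12434356 (plus strand; GRCh38, as for all positions here). HCCLM3 alone gave 9574, 9880 and 7218 PPARG counts, and HCCLM3 with LX2 gave 7179, 7841 and 7037. The level was 22.1 ± 2.28 FPKM (SD, n = 3) alone and 20.2 ± 0.873 FPKM with LX2, and the groups overlapped in FPKM. On the log2 scale of the edgeR fit, which corrects for library composition, the change was -0.30. Its standard error (SE), worked back from the test statistic as for every edgeR SE here, was 0.0958. LX2 alone gave 1128, 1027 and 1198 counts, and LX2 with HCCLM3 gave 925, 951 and 844, so every co-culture library was lower. The LX2 level went from 3.21 ± 0.162 to 2.47 ± 0.223 FPKM, a log2 change of -0.40 (SE 0.0920) that passed the threshold of 0.05 on adjusted p. It no longer passed without replicate 3 of LX2 alone, with a log2 change of -0.37. In HCCLM3 the change passed only without replicate 3 of HCCLM3 alone, with a log2 change of -0.39.

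PPARA, at chr22:46150521-46243755 (plus strand), could not be pinned down because libraries of 1 group differed several-fold. HCCLM3 alone gave 718, 903 and 592 counts. With LX2 the counts were 111, 145 and 901: replicates 1 and 2 lay below all the libraries of HCCLM3 alone. Replicate 3 lay among them in counts but above them in FPKM, at 0.851 against at most 0.755. LX2 alone gave 1143, 1997 and 2183 counts, and LX2 with HCCLM3 gave 737, 2407 and 352, with replicate 2 the highest of all 6. The within-group SD of PPARA was 1.12 on the log2 CPM scale, and of 4164 genes within 2-fold of its mean level only 2.64% had a spread as large. The log2 change was -0.95 (SE 0.762) in HCCLM3 and -0.72 (SE 0.676) in LX2. Without replicate 3 of HCCLM3 with LX2 it was -2.56 and passed the threshold, and without replicate 2 of LX2 with HCCLM3 it was -1.78 and passed too. The call thus rested on which libraries were kept. Its level was 0.630 ± 0.110 FPKM in HCCLM3 grown alone and 0.363 ± 0.423 FPKM in co-culture, and 1.76 ± 0.568 and 1.09 ± 1.0 FPKM in LX2.

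ANGPTL4 encodes a secreted inhibitor of lipoprotein lipase, the enzyme that frees fatty acids from circulating triglyceride. The gene lies at chr19:8363289-8374370 (plus strand). HCCLM3 alone gave 199, 152 and 116 counts, and HCCLM3 with LX2 gave 1629, 2061 and 1586. Every co-culture library was far above every library of HCCLM3 alone. The level went from 0.700 ± 0.148 to 8.87 ± 1.17 FPKM, and the log2 change was 3.47 (SE 0.202). LX2 showed no such shift: its libraries gave 33, 45 and 21 counts alone and 34, 29 and 41 with HCCLM3. The LX2 levels overlapped fully, at 0.168 ± 0.0704 and 0.170 ± 0.0306 FPKM, with a log2 change of -0.044 (SE 0.376). The change in HCCLM3 exceeded that in LX2 by 3.48 (SE 0.386) on the log2 scale. An exon of ANGPTL4 shares 1 base with an exon of the antisense gene RAB11B-AS1, which had 260 counts over the 3 libraries of HCCLM3 alone and 498 over the 3 with LX2. No source used here states whether the counting used strand.

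PDK4 phosphorylates and so shuts down the pyruvate dehydrogenase complex, which turns cells from glucose towards fatty acids as fuel. It was higher with co-culture in both lines. The gene lies at chr7:95583499-95596516 (minus strand). HCCLM3 alone gave 108, 136 and 122 counts and HCCLM3 with LX2 gave 382, 564 and 419. LX2 alone gave 782, 700 and 699 counts and LX2 with HCCLM3 gave 2851, 3019 and 2908. In neither line did the groups overlap. The level went from 0.303 ± 0.0440 to 1.24 ± 0.240 FPKM in HCCLM3 and from 2.09 ± 0.112 to 8.0 ± 0.280 FPKM in LX2. The log2 changes were 1.86 (SE 0.203) and 1.90 (SE 0.0668), and their difference was -0.074 (SE 0.195). With limma on log2(FPKM + 1), a scale that shrinks changes of low levels, they were 0.78 and 1.54, and the difference of -0.76 passed the threshold. Even with LX2 present, HCCLM3 stayed below LX2 alone, so the order of the 4 groups from low to high was HCCLM3 alone, HCCLM3 with LX2, LX2 alone and LX2 with HCCLM3, with no overlap between neighbours.

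Upstream sequences are shown for the 3 members that were higher with co-culture in at least 1 line by the threshold above: ANGPTL4, PDK4 and PLIN2. Each is the 250 bases before the RefSeq transcript start (GRCh38.p14), written 5′ to 3′ on the gene's strand, with matches to ACGTG, the core of the hypoxia response element, or to its reverse complement in capitals. They are chr19:8363905-8364154 on the plus strand, chr7:95596517-95596766 on the minus strand and chr9:19127493-19127742 on the minus strand.
ANGPTL4: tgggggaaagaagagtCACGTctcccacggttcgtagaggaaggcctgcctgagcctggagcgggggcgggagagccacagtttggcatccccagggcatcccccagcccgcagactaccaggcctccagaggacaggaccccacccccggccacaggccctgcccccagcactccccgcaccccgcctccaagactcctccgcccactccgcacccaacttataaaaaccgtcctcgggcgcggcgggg
PDK4: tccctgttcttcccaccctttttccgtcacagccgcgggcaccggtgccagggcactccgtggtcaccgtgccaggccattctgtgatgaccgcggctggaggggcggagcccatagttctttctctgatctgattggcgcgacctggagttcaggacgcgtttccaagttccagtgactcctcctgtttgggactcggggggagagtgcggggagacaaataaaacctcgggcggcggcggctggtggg
PLIN2: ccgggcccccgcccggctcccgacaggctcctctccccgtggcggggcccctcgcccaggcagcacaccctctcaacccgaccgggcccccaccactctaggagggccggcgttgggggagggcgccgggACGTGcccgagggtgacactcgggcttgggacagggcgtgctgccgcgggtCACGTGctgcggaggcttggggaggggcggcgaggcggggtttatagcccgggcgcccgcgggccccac
ANGPTL4 held 1 match to ACGTG, PLIN2 held 3, of which 2 overlap in a palindrome and are read on opposite strands, and PDK4 held none. The classical binding element of a PPAR and RXR pair is 2 direct copies of AGGTCA with 1 base between them. Both strands were searched in windows of 300 bases, from 250 before to 50 after a start. That exact repeat was in none of the 21 windows of the 9 members and in 0.0228% of all 35116 windows. AGGTCA alone, which every such repeat also contains, was in 13.8% of all windows and ACGTG was in 21.4%. Among members, AGGTCA was in the FABP1 window and in 3 of the 6 PPARG windows, 2 of which overlap and hold the same match. ACGTG was also in an ACADVL window and in a PPARG window, with 1 match each. Neither of these genes was higher with co-culture by the threshold above. An exact match is a description of these letters only.

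**Figure D1:**
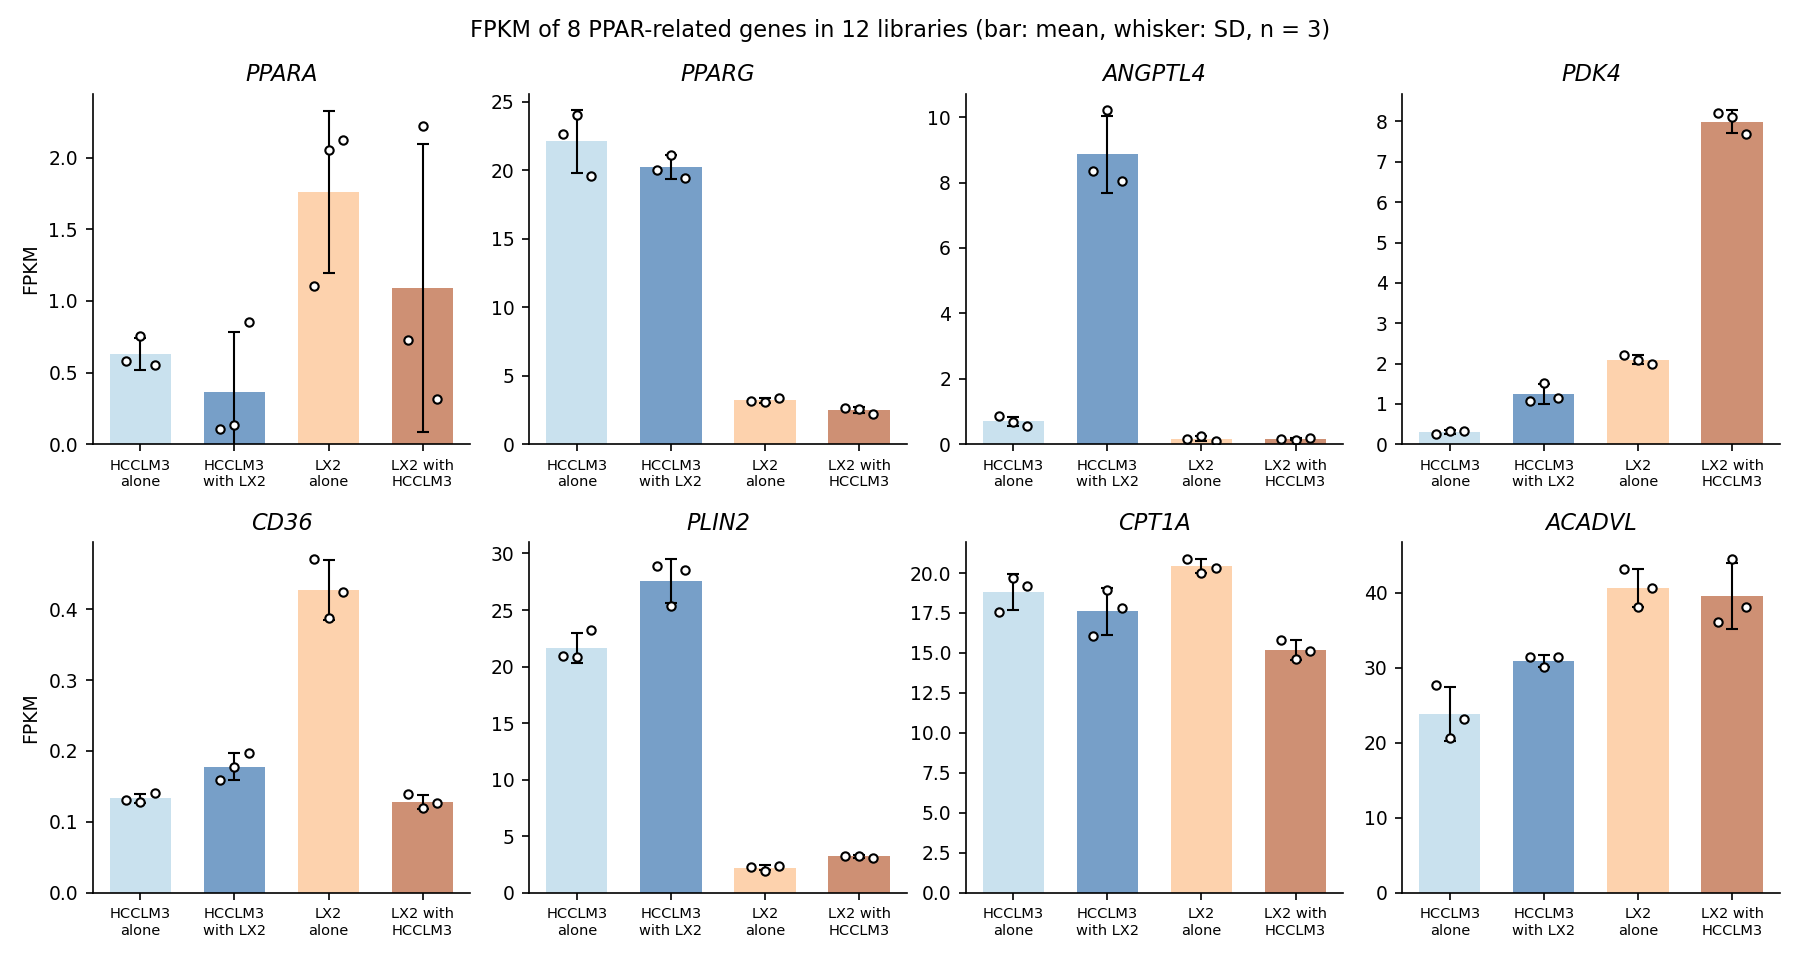
FPKM of 8 PPAR-related genes (y axis, linear and starting at 0, a scale of its own for each gene) in HCCLM3 and LX2, alone and in co-culture; circles are single libraries, bars are means and whiskers are SD over 3 libraries. ANGPTL4 is high only in HCCLM3 with LX2 (8.87 FPKM), PDK4 is higher with co-culture in both lines, and the PPARA libraries scatter within groups.

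Of the fatty acid carriers, CD36 was lower with co-culture in LX2 and FABP1 was not detected. CD36, a membrane protein that takes up long-chain fatty acids, lies at chr7:80369575-80679274 (plus strand). LX2 alone gave 402, 311 and 359 counts, and LX2 with HCCLM3 gave 117, 108 and 116. All 3 co-culture libraries were well below those of LX2 alone, and the level went from 0.427 ± 0.0420 to 0.128 ± 0.00988 FPKM, a log2 change of -1.75 (SE 0.135). HCCLM3 gave 133, 129 and 125 counts alone and 141, 159 and 172 with LX2. There the level went from 0.133 ± 0.00629 to 0.178 ± 0.0191 FPKM without overlap, but the log2 change was 0.26 (SE 0.187) and did not pass the threshold. The change in HCCLM3 exceeded that in LX2 by 1.98 (SE 0.232). CD36 was below 1 FPKM in all 12 libraries. FABP1, the abundant fatty acid binding protein of hepatocytes, lies at chr2:88122982-88128062 (minus strand) and had 0 counts in all 6 HCCLM3 libraries, which allows up to 0.0457 CPM. The LX2 table, which holds only genes with a count, has no row for it.

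PLIN2 coats lipid droplets and protects their triglyceride from breakdown. It lies at chr9:19108375-19149290 (minus strand). LX2 alone gave 900, 725 and 917 counts, and LX2 with HCCLM3 gave 1264, 1349 and 1278, so every co-culture library was higher. The LX2 level went from 2.21 ± 0.211 to 3.21 ± 0.132 FPKM, a log2 change of 0.51 (SE 0.0921). HCCLM3 gave 9741, 9453 and 9418 counts alone and 11387, 10341 and 11387 with LX2, or 21.7 ± 1.33 and 27.6 ± 1.96 FPKM. The HCCLM3 groups did not overlap in FPKM, yet the log2 change of 0.18 (SE 0.0866) did not pass the threshold. With scaling by library totals alone it was 0.36 and passed, as it did with limma on log2(FPKM + 1), at 0.33.

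Of the oxidation enzymes, CPT1A was lower with co-culture in LX2, and ACADVL did not pass the edgeR threshold in either line. CPT1A loads long-chain fatty acids onto carnitine at the mitochondrial outer membrane, the step that commits them to oxidation, and lies at chr11:68754620-68841931 (minus strand). LX2 alone gave 10702, 9668 and 10368 counts, and LX2 with HCCLM3 gave 7954, 7854 and 8292, with no overlap. The LX2 level went from 20.4 ± 0.444 to 15.2 ± 0.606 FPKM, a log2 change of -0.45 (SE 0.0395). HCCLM3 gave 10699, 11665 and 10214 counts alone and 8300, 10155 and 9309 with LX2. Its FPKM overlapped, at 18.8 ± 1.12 and 17.6 ± 1.46, and the log2 change was -0.26 (SE 0.0786). That change did not pass the edgeR threshold but passed with DESeq2, at a log2 change of -0.26, and with library totals alone it was -0.086.

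ACADVL carries out the first step of oxidation of very long chains, and lies at chr17:7217125-7225266 (plus strand). HCCLM3 gave 12401, 8982 and 9041 counts alone and 11935, 11815 and 12084 with LX2. In FPKM the groups, at 23.8 ± 3.58 and 31.0 ± 0.802, did not overlap, while replicate 1 of HCCLM3 alone lay near the co-culture libraries. The log2 change was 0.21 (SE 0.123). It passed the threshold without that replicate, at 0.35, and with limma on log2(FPKM + 1), at 0.38. LX2 gave 16251, 13503 and 15233 counts alone and 13327, 17577 and 15332 with HCCLM3, which overlapped (40.7 ± 2.57 and 39.6 ± 4.41 FPKM; log2 change -0.067, SE 0.0883). ACADVL shares 85 exon bases with DLG4 on the opposite strand, which had 128 counts over the 3 libraries of HCCLM3 alone and 607 over the 3 with LX2, against 4530 and 4093 in LX2.

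In all, 8 of the 9 members could be tested in each line, all but FABP1. In HCCLM3, 2 of the 8 (ANGPTL4 and PDK4) were higher and none was lower. Of all 18045 genes tested there, 21.7% passed the threshold, 10.1% higher and 11.6% lower. In LX2, 2 were higher (PDK4 and PLIN2) and 3 lower (CD36, CPT1A and PPARG). Of all 19671 genes tested there, 31.9% passed, 15.4% higher and 16.6% lower. By FPKM alone, 5 members did not overlap and were higher in HCCLM3, against 31.7% of genes higher and 12.5% lower by that rule. In LX2, 2 did not overlap and were higher and 3 were lower, against 26.1% and 22% of genes. The median log2 change of the 8 members was 0.20 in HCCLM3 and -0.23 in LX2, beside 0.033 and 0.015 over all genes tested. The change differed between the lines past the threshold for ANGPTL4 and CD36, 2 of 8 members, and for 20.7% of 21959 genes tested. Members were chosen on these changes, so the counts are a description.

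**Figure D2:**
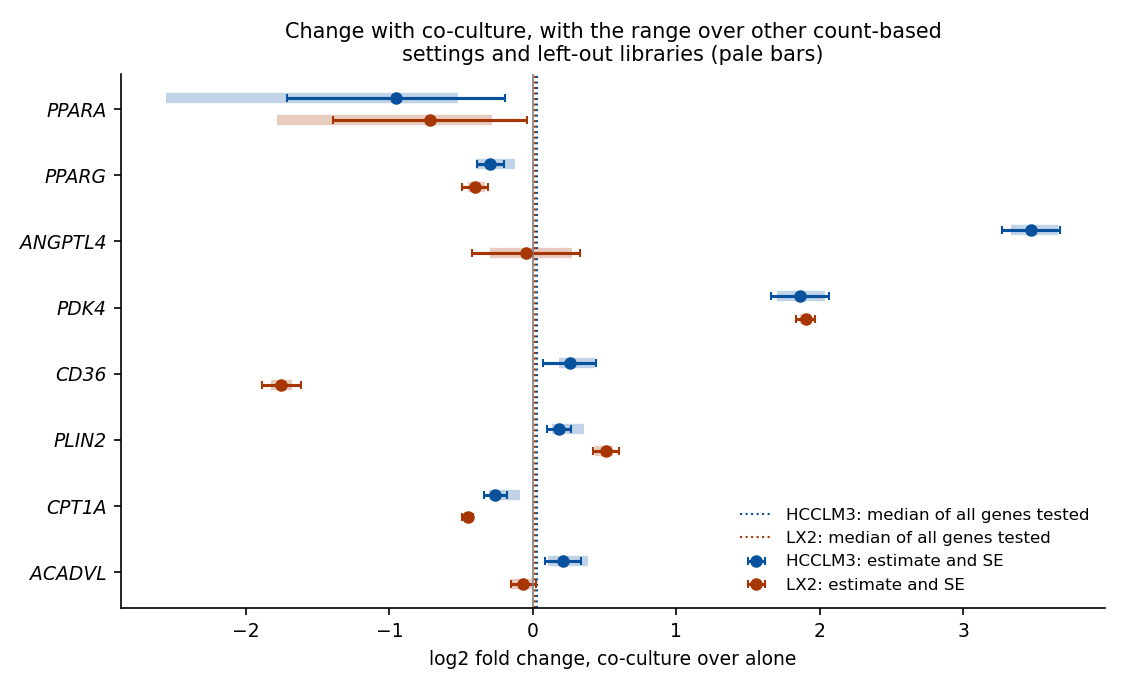
Log2 fold change of co-culture over alone (x axis) for 8 genes in HCCLM3 (blue) and LX2 (brown); points are edgeR estimates, whiskers are SE, pale bars span the other count-based settings and the fits with 1 library left out, and dotted lines mark the median of all genes tested. ANGPTL4 stands at 3.47 in HCCLM3 and -0.044 in LX2, PDK4 stands near 1.9 in both lines, and the HCCLM3 bar of PPARA reaches from -2.56 to -0.52.

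The scale of the comparison bears on the small HCCLM3 changes. With library totals in place of TMM factors, the median log2 change of all genes in HCCLM3 went from 0.033 to 0.21, and the genes past the threshold went from 1829 higher and 2095 lower to 2977 higher and 1039 lower. Relative to that shift ANGPTL4 (3.65) and PDK4 (2.04) stood as far out as before, and PLIN2 (0.36) and ACADVL (0.39) stood slightly above it. PPARG (-0.12) and CPT1A (-0.086) stayed negative.

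Genes that only the other line expressed when grown alone were counted in each co-culture, since the lines shared a chip. Such counts cannot tell transcripts carried over from the other line from genes that came on with co-culture. Of 62 genes that have no count in LX2 alone and that average at least 1000 counts in both HCCLM3 groups, the count in LX2 with HCCLM3 had a median of 0.607% of that in HCCLM3 with LX2 (quartiles 0.381% and 0.946%). The PLIN2 gain in LX2, 449.7 counts on average, was 4.07% of the PLIN2 count in HCCLM3 with LX2. Of the 62 genes, IGFBP1 (30.4%), COL6A3 (5.21%) and VNN1 (4.37%) were above that share. For the reverse direction, 66 genes of LX2 that have no count in HCCLM3 alone had a median of 0.209% and a highest share of 2.15% in HCCLM3 with LX2. The PDK4 gain in HCCLM3, 333 counts, was 11.4% of the PDK4 count in LX2 with HCCLM3. ANGPTL4 averaged only 34.7 counts in LX2 with HCCLM3, against a gain of 1603 in HCCLM3, and PDK4 averaged 455 in HCCLM3 with LX2, against a gain of 2199 in LX2.

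Levels were also set side by side between the lines grown alone, as a description only, since the deposited tables were made separately for each line. In HCCLM3 alone, PPARG was 6.89-fold, PLIN2 9.83-fold and ANGPTL4 4.17-fold higher in mean FPKM than in LX2 alone. PDK4 was 6.91-fold, CD36 3.21-fold, PPARA 2.79-fold and ACADVL 1.71-fold higher in LX2, and in each of these 7 the libraries of the lines did not overlap. CPT1A was 1.09-fold higher in LX2. In FPKM, the order in HCCLM3 alone was ACADVL, PPARG, PLIN2 and CPT1A, from 23.8 down to 18.8, then ANGPTL4, PPARA, PDK4 and CD36, all under 1. The libraries of ACADVL, PPARG and PLIN2 overlapped, as did those of ANGPTL4 and PPARA, while CPT1A overlapped only with PPARG. In LX2 alone ACADVL (40.7) led, followed by CPT1A (20.4), PPARG (3.21), PLIN2 (2.21), PDK4 (2.09), PPARA (1.76), CD36 (0.427) and ANGPTL4 (0.168). PLIN2, PDK4 and PPARA overlapped there.

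The wider pathway was read from 8 lists with 129 genes, none of them members. The lists were chosen with earlier results of these data known, so the shares that passed are a description. In HCCLM3, 12 rose and 11 fell of 107 tested, or 21.5%, beside 21.7% of all genes. Leaving out 1 library took that count of 23 to between 10 and 17, and the count over all genes from 3924 to between 1918 and 2928, lowest without replicate 3 of HCCLM3 with LX2. In LX2, 33 rose and 16 fell of 104 tested, or 47.1%, beside 31.9% of all genes. The median log2 change of the listed genes was 0.025 in HCCLM3 and 0.14 in LX2. The change differed between lines for 32 of 113 genes, 8 with the larger value in HCCLM3 and 24 with the larger value in LX2. All calls on listed genes are from edgeR's quasi-likelihood test with Benjamini-Hochberg adjustment over all genes tested. By single list, the share that passed ran from 13.3% to 42.9% in HCCLM3 and from 27.3% to 66.7% in LX2. The counts per list below stand beside the same 21.7% and 31.9% of all genes.

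Receptor partners came first. In HCCLM3, 2 of 16 partners and coregulators rose and 1 fell. RXRA, an RXR partner of the PPARs, fell from 14.8 ± 0.551 to 11.3 ± 0.471 FPKM (log2 change -0.55, SE 0.0671, adjusted p = 0.00279). The coactivators CREBBP (0.58) and NCOA2 (0.59) rose, but each call was lost without 4 or 5 of the 6 single libraries, with adjusted p from 0.0604 to 0.0763 for CREBBP and from 0.0519 to 0.0869 for NCOA2. CREBBP kept its call without replicate 2 of HCCLM3 alone or replicate 1 of HCCLM3 with LX2. In LX2, 7 of 17 rose and 4 fell. PPARGC1A, the coactivator known for inducing mitochondrial and fasting genes, rose from 5.38 ± 0.0576 to 8.57 ± 0.326 FPKM (log2 change 0.64, SE 0.0403, adjusted p = 8.76e-05). NCOA3 fell (-0.45). RXRA fell in LX2 as well, with a log2 change of -0.36 (adjusted p = 0.00161). PPARD, the remaining PPAR, did not pass in HCCLM3 (0.37) or in LX2 (-0.017).

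Lipoprotein lipase itself, the target of ANGPTL4 protein, was expressed mainly in LX2. LPL rose there from 26.0 ± 1.31 to 42.8 ± 0.765 FPKM (log2 change 0.69, SE 0.0430, adjusted p = 8.49e-05), while in HCCLM3 it averaged 0.0389 and 0.0636 FPKM. LIPG, endothelial lipase, rose in LX2 from 0.0371 to 0.196 FPKM (2.33). Of the lipase list, 2 of 3 genes tested rose in LX2 and 1 of 6 in HCCLM3, the hepatic lipase gene LIPC (0.69, adjusted p = 0.00566).

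The partners of PDK4 at the pyruvate dehydrogenase complex changed in part. In LX2, 3 of 11 rose and none fell: the kinase PDK1 (0.82, SE 0.0712, adjusted p = 0.000328) and the complex subunits PDHA1 (0.23) and DLAT (0.36). In HCCLM3, 1 of 11 rose, the kinase PDK2 (0.72, adjusted p = 0.0107), and 1 fell, the subunit DLD (-0.70, adjusted p = 0.0019). Per length, PDK3 (5.82 FPKM) and PDK2 (2.86 FPKM) were the kinases with the highest levels in LX2 alone. PDK4 passed both in LX2 with HCCLM3, where it was at 8.0 FPKM.

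Genes of fatty acid uptake, binding and activation fell or did not pass in HCCLM3 (0 of 15 rose and 2 fell) and went both ways in LX2 (4 of 14 rose and 2 fell). In HCCLM3 the transporter SLC27A4 fell by 0.69 on the log2 scale (SE 0.0821, adjusted p = 0.00264) and the binding protein FABP5 fell by 0.69. In LX2 the activating enzyme ACSL3 rose from 16.7 ± 1.19 to 33.2 ± 1.98 FPKM (0.97, adjusted p = 0.000129), SLC27A3 rose (2.05) and the lipoprotein receptor VLDLR rose (0.64). Of the droplet and triglyceride list, 1 of 16 rose and 3 fell in HCCLM3, and 4 of 16 rose and 2 fell in LX2. The droplet protein gene CIDEC fell in HCCLM3 from 12.1 ± 0.214 to 6.82 ± 0.787 FPKM (-0.99, adjusted p = 0.00265) and the coat protein gene PLIN4 rose (0.65), while ABHD5, a coactivator of triglyceride lipase, fell (-0.58). The ABHD5 call was lost without any single library except replicate 3 of HCCLM3 alone, with adjusted p from 0.0666 to 0.0854. In LX2 the monoglyceride lipase MGLL fell from 5.82 ± 0.0913 to 1.24 ± 0.150 FPKM (-2.25, SE 0.0915, adjusted p = 1.44e-05), the triglyceride synthesis gene DGAT2 fell (-0.83) and the phosphatidate phosphatase LPIN1 rose (1.31).

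Most mitochondrial oxidation genes other than CPT1A and ACADVL moved by small amounts. In HCCLM3, 3 of 24 rose and 1 fell, with a median log2 change of 0.015. CPT1B, the muscle form of the carnitine transferase, rose from 0.221 ± 0.0238 to 0.661 ± 0.0713 FPKM (1.38, adjusted p = 0.00504). HADH rose (0.32) and ECI2 fell (-0.38), but ECI2 lost its call without any 1 of the 6 libraries (adjusted p from 0.0648 to 0.107), and HADH lost it without any except replicate 2 of HCCLM3 with LX2 (0.0859 to 0.135). In LX2, 6 of 24 rose and 3 fell, with a median of 0.10, and the named ones were ACAA2 (-0.31), ETFB (0.28) and ACAD11 (0.53). Of the peroxisomal and omega oxidation list, which also holds VNN1, 1 of 12 rose and 3 fell in HCCLM3. VNN1, a pantetheinase and known PPARA target, fell from 21.2 ± 1.77 to 9.86 ± 0.366 FPKM (-1.27, adjusted p = 0.000515), ABCD3 fell (-0.52) and PEX11A rose (0.74). ABCD3 lost its call without each of the 3 co-culture libraries in turn (adjusted p from 0.0523 to 0.0536), and PEX11A lost it without any library except replicate 2 of HCCLM3 with LX2 (0.053 to 0.0782). In LX2, 3 of 11 genes of that list rose and 4 fell, among them HSD17B4 (-0.33) and SCP2 (-0.31). VNN1 had 0 counts in the 3 libraries of LX2 alone and 110, 154 and 134 with HCCLM3, at least 126-fold higher against 3 counts over the group. VNN1 is also 1 of the 62 HCCLM3 genes above, and the part of HCCLM3 transcripts in its count was not tested.

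Ketone body and fasting genes rose in both lines by a few members each. In HCCLM3, 3 of 7 rose, among them the glucose-responsive TXNIP, from 0.591 ± 0.335 to 2.30 ± 0.353 FPKM (1.80, adjusted p = 0.033). Its call was lost without replicate 3 of HCCLM3 alone and without each of the 3 co-culture libraries in turn, with adjusted p of up to 0.0893. In LX2, 4 of 8 rose and 1 fell: the gluconeogenic enzyme PCK1 from 0.0460 to 0.319 FPKM (2.71) and the hormone FGF21 from 0.0591 to 0.378 FPKM (2.59) were among those that rose. PCK1 and FGF21 stayed below 1 FPKM.

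Lists for other regulators that ANGPTL4 and PDK4 are known to answer to were read the same way. Over all genes tested, 21.7% passed in HCCLM3 and 31.9% in LX2. In the same order, 60% and 80% of the hypoxia genes tested passed, and 57.1% of the glucocorticoid genes in each line. For the FOXO list the shares were 44.4% and 77.8%. These lists too were chosen with earlier results of these data known, so the shares are a description. Of 10 hypoxia response genes, 6 rose and none fell in HCCLM3, with a median log2 change of 1.17, and 7 rose and 1 fell in LX2, with a median of 0.22. CA9 rose in HCCLM3 from 0.554 ± 0.185 to 21.0 ± 0.975 FPKM (5.05, SE 0.273, adjusted p = 0.000313), against 10.8 ± 0.871 to 18.5 ± 0.219 FPKM in LX2 (0.75). NDRG1 rose by 1.3 and 0.54 and LOX by 2.63 in HCCLM3, and ADM rose by 0.63 in LX2. Of 7 glucocorticoid response genes, 3 rose and 1 fell in HCCLM3 and 4 rose in LX2. KLF9 rose in both (2.90 and 0.77), SGK1 rose by 1.34 in LX2, TSC22D3 rose by 0.73 in HCCLM3, and DUSP1 fell in HCCLM3 (-0.85) and rose in LX2 (0.64). Of 9 FOXO response genes, 3 rose and 1 fell in HCCLM3 and 6 rose and 1 fell in LX2. IRS2 rose in both lines (1.36 and 0.99), CITED2 rose in HCCLM3 (0.59), TRIB1 fell there (-0.41), and in LX2 FBXO32 rose (1.27) and BCL6 fell (-0.97). The part of any of these regulators in the ANGPTL4 and PDK4 changes was not tested.

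**Figure D3:**
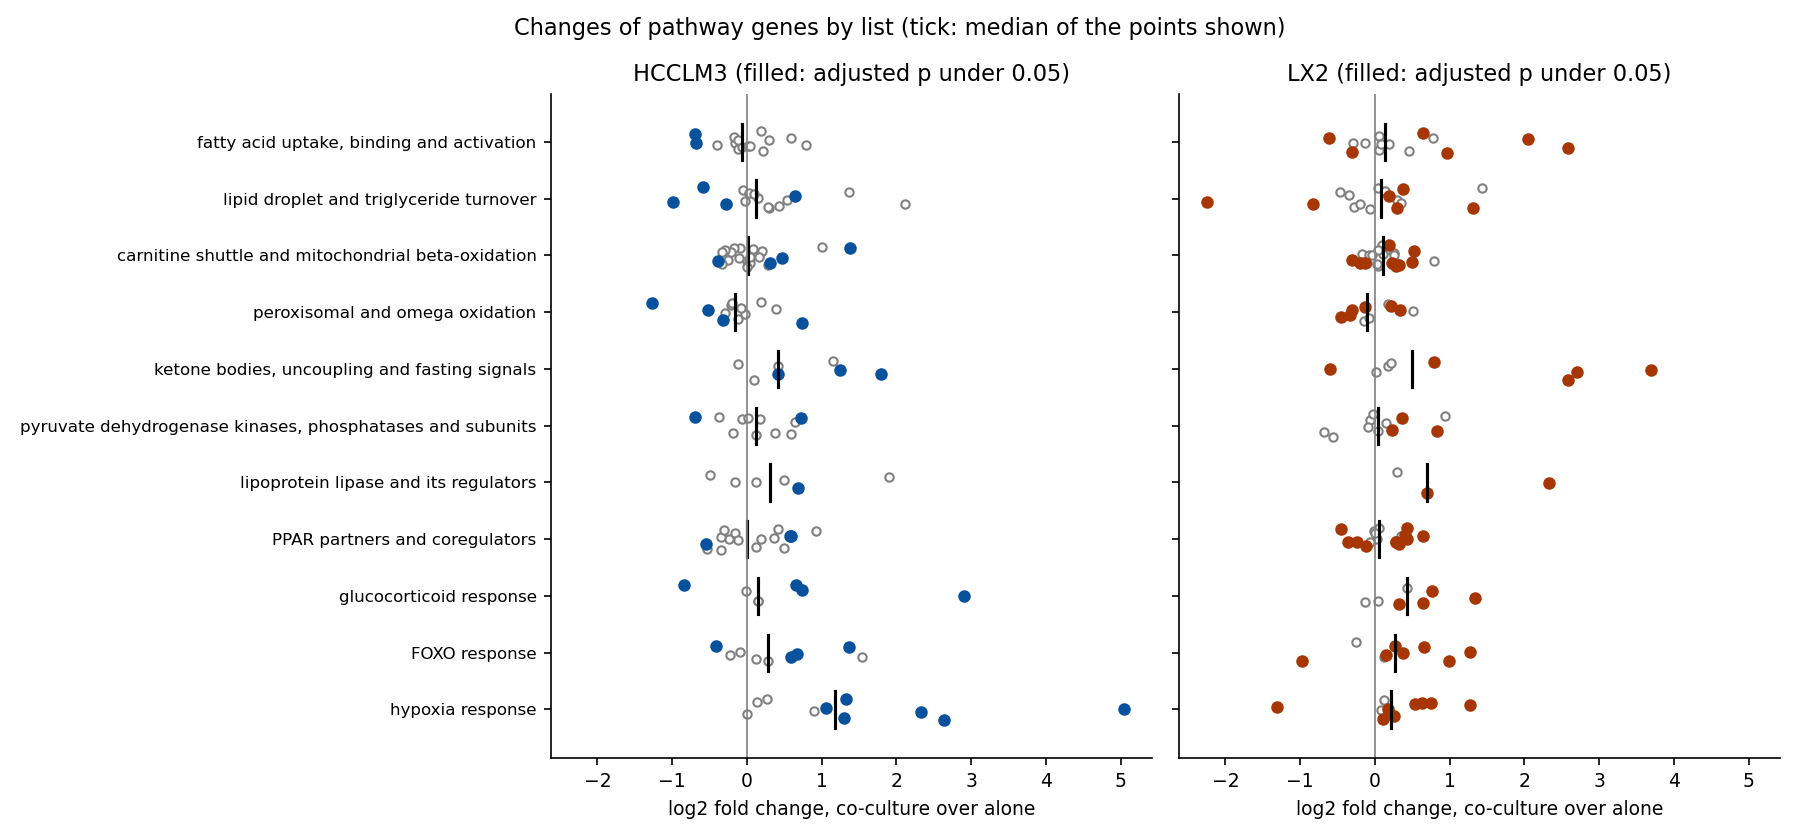
Log2 fold change of co-culture over alone (x axis) for the genes of 11 lists (y axis) in HCCLM3 (left) and LX2 (right); each point is a gene, filled where adjusted p is under 0.05, and ticks mark the median of the points. VNN1 in LX2 is not drawn because LX2 alone had 0 counts. Most fatty acid genes lie within 1 unit of 0, while the hypoxia list is spread upwards in HCCLM3, with CA9 at 5.05.

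The deposited tables also carry pathway labels. Of the KEGG PPAR signaling genes that are no members, 7 of 43 tested rose and 7 fell in HCCLM3 (32.6%, beside 21.7% of all genes), and 13 of 44 rose and 8 fell in LX2 (47.7%, beside 31.9%). Of the KEGG fatty acid degradation genes, 6 of 33 rose and 5 fell in HCCLM3 (33.3%), and 8 of 32 rose and 5 fell in LX2 (40.6%). Their median log2 changes lay between 0.0025 and 0.13.

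The genes whose pattern was most like that of ANGPTL4 and of PDK4 were sought among 11443 genes by Pearson's r of log2 CPM over the 12 libraries. The libraries form 4 tight groups, so r mainly compares the 4 group means and is given as a description. For ANGPTL4 they were RCOR2 (r = 0.986), PHF12 (0.985), SLC11A2 (0.984), NID1 (0.984) and ICAM1 (0.983). Their shape matched but not their size: ANGPTL4 averaged 2.5 and 27.8 CPM in HCCLM3 alone and in co-culture and 0.460 and 0.456 CPM in LX2, and RCOR2 averaged 14.7, 26.2, 8.42 and 7.86 CPM in the same order. For PDK4 they were CEP95 (0.994), IL1RAP (0.991), SLC1A4 (0.989), CLK1 (0.989) and PTPRM (0.989). PDK4 averaged 1.97, 7.18, 10.1 and 38.6 CPM in that order, and IL1RAP averaged 4.81, 10.4, 12.2 and 23.8. None of these 10 genes is a member or is in the fatty acid lists.

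**Figure D4:**
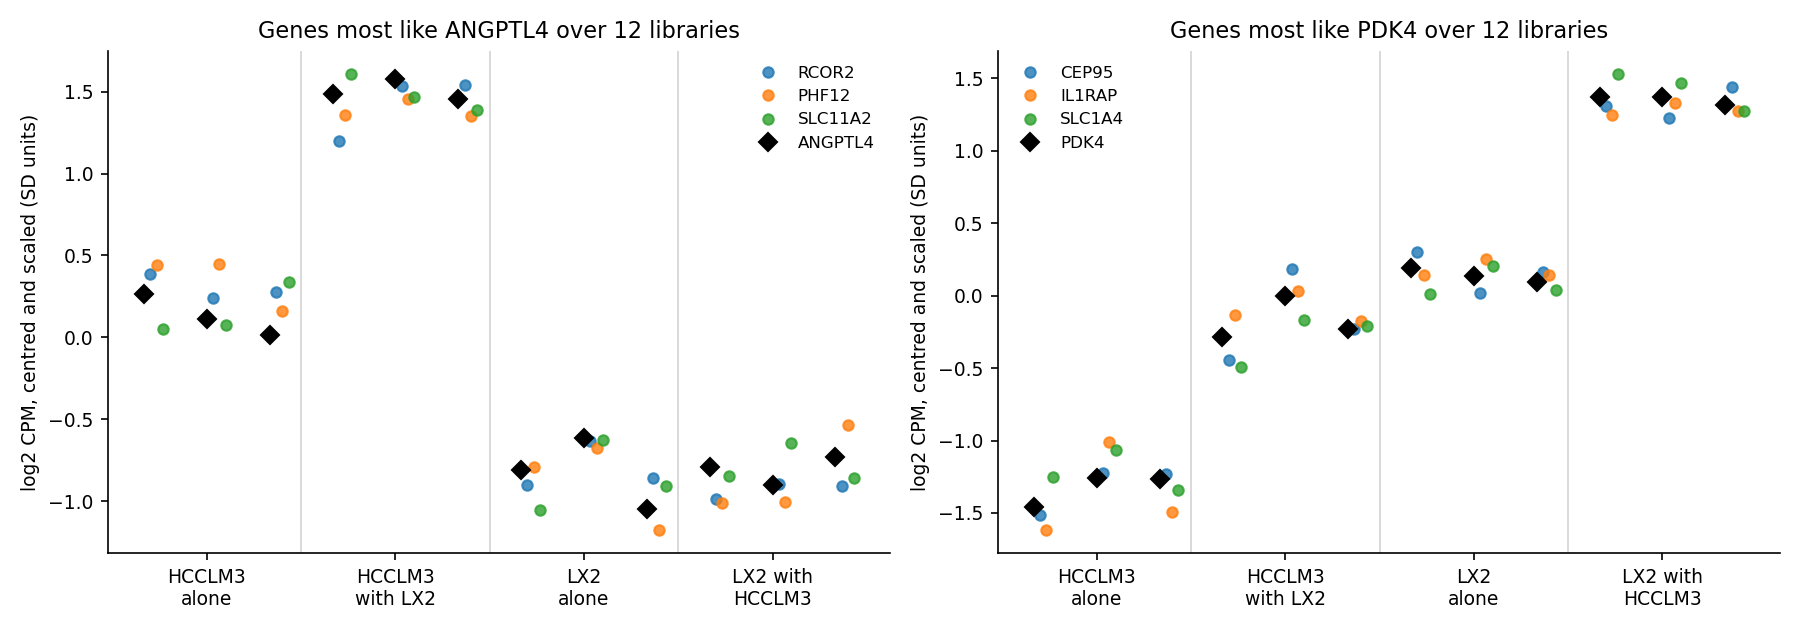
Log2 CPM, centred and scaled by its SD over 12 libraries (y axis), of ANGPTL4 (left) and PDK4 (right; black diamonds) with the 3 genes most like each (coloured circles), in the 3 libraries of each group (x axis). ANGPTL4 and its nearest genes are highest in HCCLM3 with LX2, whereas PDK4 and its nearest genes climb from HCCLM3 alone to LX2 with HCCLM3.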

How the data were processed

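Poly(A) RNA of 12 libraries was sequenced in pairs, per the labels' protocols. The authors deposited, for each line, a table with raw counts and FPKM per gene and library. The submitters' processing notes list HISAT2 2.0, StringTie 1.3.0 and Bowtie 0.12.2, without their roles. They name the mouse build mm8, yet the deposited identifiers are human, and 90.6% of the 58394 found in GENCODE release 29 have the same gene start or end, so positions were read as GRCh38. The protocol text also speaks of adipose RNA, and it names another sequencer than the series' design text. No source used here states how the counts treated strand and multi-mapped reads.

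Members and lists were chosen with earlier results of these data known. The KEGG lists were taken from the pathway labels in the deposited tables. Up to 3 genes per list and line were named: those with the smallest p past the threshold. A few of these are not reported here. All members were named, and the genes most like ANGPTL4 and PDK4 had a mean of at least 10 CPM in 1 group. The genes of the other line (no count in the receiving line alone and a mean of at least 1000 counts in both groups of the other) were set after the data were seen.

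Raw counts as deposited were tested per line with edgeR 4.0.16 (R 4.3.3): filterByExpr (minimum count 10, minimum total 15), TMM scaling, the quasi-likelihood test and Benjamini-Hochberg adjustment over all genes tested, with a threshold of 0.05. The difference between lines was the interaction in a fit of all 12 libraries joined by gene identifier. The SE of an edgeR change is the absolute log2 change divided by the square root of the F statistic of its test. FPKM were used as deposited by the authors, for levels and overlap, except that an FPKM beside a count of 0 was set to 0. The lowest such value was 0.0001 in the HCCLM3 table. A gene without a row in the LX2 table was taken as 0 there when the libraries were joined. Alternatives were RLE size factors, library totals, no filter, DESeq2 1.42.0, limma 3.58.1 on log2(FPKM + 1) or log2(FPKM + 0.1), a replicate block, and leaving out each library. The scripts were tested on simulated counts. Sequences are from RefSeq (GRCh38.p14), which matched all 9 members, in 21 windows. Replicates differed by more than counting noise, so none was merged.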

Additional observations from a re-analysis of the deposited data

Results flagged for a closer look

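CD36 was higher in every co-culture library of HCCLM3 and lower in every co-culture library of LX2 than in the line alone, by FPKM. In HCCLM3 the log2 change of 0.26 (SE 0.187) did not pass the threshold. Of all genes tested, 31.7% were higher without overlap in HCCLM3 and 22% were lower without overlap in LX2. The log2 changes of the lines differed by 1.98, which passed the threshold of edgeR's interaction over all genes tested. CD36 was chosen with these changes known, so the difference is a description.

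Other named genes changed differently in the lines by the test of the difference itself (edgeR's interaction, adjusted p under 0.05 over all genes tested). Each value below is the log2 change in HCCLM3 minus that in LX2. Among hypoxia genes it was 4.27 for CA9, 2.34 for LOX and 0.73 for NDRG1, and -0.39 for ADM. Among glucocorticoid and FOXO genes it was 2.11 for KLF9, -1.52 for DUSP1, -0.72 for SGK1, 1.23 for BCL6, -0.64 for FBXO32 and -0.56 for TRIB1. In the ketone and pyruvate dehydrogenase lists it was 2.37 for TXNIP, 0.75 for PDK2, -0.88 for DLD, -0.77 for DLAT and -0.45 for PDHA1. Among uptake genes it was -1.12 for ACSL3, -1.78 for SLC27A3, -0.49 for VLDLR and -0.42 for SLC27A4. In the droplet and lipase lists it was 1.94 for MGLL, 1.08 for DGAT2, -0.80 for LPIN1 and -2.85 for LIPG. Among oxidation genes it was 1.26 for CPT1B, -0.85 for ACAD11 and -0.42 for ABCD3, and among coregulators 0.80 for NCOA2.

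For 4 genes that LX2 alone had at 0 counts the test of the difference also passed, and no size is given: VNN1 (adjusted p = 2.45e-07 by edgeR), LIPC (0.00145), CIDEC (0.0204) and FABP5 (0.0228). Their mean count in LX2 with HCCLM3 was 4.37% of that in HCCLM3 with LX2 for VNN1, 0.872% for LIPC, 0.381% for CIDEC and 0.157% for FABP5, beside the median of 0.607% over the 62 HCCLM3 genes with no count in LX2 alone. The part of HCCLM3 transcripts in these differences was not tested.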

How the results depend on the processing

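No change past the threshold reversed under an alternative that was run. With limma on FPKM, 4 members passed in HCCLM3 with either pseudocount (PLIN2 and ACADVL joined ANGPTL4 and PDK4), against 2 with edgeR. With log2(FPKM + 1), 4 differed between the lines (CPT1A and PDK4 joined ANGPTL4 and CD36), against 2. ANGPTL4 in LX2, near 0, took either sign. Leaving out 1 library took the HCCLM3 genes past the threshold from 3924 to between 1918 and 2928 and the pathway genes there from 23 to between 10 and 17, with fewer samples in each fit. The lowest gene count came without replicate 3 of HCCLM3 with LX2. Of the results that answer a comparison, 133 values under an alternative stayed within 1.5 times or within the replicate SD and 10 moved further.

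Replicate numbers were shared between groups but did not pair the libraries: the correlations of same-numbered deviations lay between -0.034 and 0.038. Each HCCLM3 library correlated best with its own number, a hint from the data, and the LX2 libraries did not. With the replicate block, 3315 genes passed in HCCLM3, 4795 in LX2 and 4439 for the difference, with 3, 4 and 2 members and 20, 37 and 33 pathway genes. CPT1A then passed in HCCLM3 and PPARG no longer did in LX2.

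Depth limits ANGPTL4 in LX2 most, with 21 to 45 counts per library, and FABP1, with none in HCCLM3.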
